A study of Mus musculus with 6 samples.

Results

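The enzymes described here extend and branch the sugar chains of glycosphingolipids, the lipids of the outer plasma membrane that carry a sugar chain on ceramide. They are 7 mouse genes, B4galt5, B4galt6, St3gal5, St8sia1, St8sia5, A4galt and B3gnt5, out of 909 genes named in the array table. They were chosen by their step in the pathway: lactosylceramide synthesis, the sialylation steps that make gangliosides, and the first steps of the globo- and lacto-series. Each gene had 1 probe set in the table, found by the RefSeq accession that its name carries, so no choice among probe sets had to be made. The probe sets of St8sia1 and St8sia5 carry the suffix s, which marks probes that can bind several transcripts.

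RNA came from MLE-15, an epithelial line of mouse lung whose immortality comes from SV40 large T antigen. There were 3 control arrays, numbered 1 to 3 in the labels, and 3 arrays, numbered likewise, of PMA-stimulated cells. PMA (phorbol 12-myristate 13-acetate) is an activator of protein kinase C. Its dose, 10 nM, and its duration, 24 h, come from the text that describes the whole series, and the labels name no vehicle for the controls. The sample titles are spelled differently by number: MLE-15CTL and MLE-15PMA for number 1, and MLE15CTL or MLE15PMA with an added A or B for numbers 2 and 3. The study asked whether enzymes of this kind, sialyltransferases among them, are present and whether PMA induces them. All arrays are of 1 established line, and the labels do not say whether separate cultures were used, so p-values here reflect the spread among these samples only, which may be technical.

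Glycosphingolipid chains grow in the Golgi, 1 sugar at a time. Glucosylceramide receives a galactose to become lactosylceramide, and lactosylceramide is the branch point. Adding sialic acid gives GM3 and the gangliosides, adding α1,4-linked galactose gives the globo-series, and adding N-acetylglucosamine gives the lacto-series. The products are known as receptors for toxins and microbes, as modulators of growth factor receptors, and as blood group and stage-specific antigens.

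Stretches upstream of 4 of these genes are shown because PMA is the treatment and because B4galt5, St3gal5 and B3gnt5 differed most between the arrays. They were taken from a set of RefSeq promoters on the mouse build GRCm38.p6. This promoter set held 5 of the 7 genes, B4galt5, St3gal5, St8sia1, A4galt and B3gnt5. Each is given 5′ to 3′ on the gene's own strand and runs up to the gene's outermost annotated start. For St3gal5 and B3gnt5 that is 56 and 42 bases short of the start used for the promoter windows below, and for B4galt5 and A4galt the starts are the same. Capitals mark the GC box (GGGCGG on either strand, overlapping matches included) in B4galt5, St3gal5 and B3gnt5. In A4galt they mark the phorbol ester response element (TGACTCA or TGAGTCA), a motif bound by the AP-1 factors.
B4galt5, chr2:167349179-167349428, minus strand: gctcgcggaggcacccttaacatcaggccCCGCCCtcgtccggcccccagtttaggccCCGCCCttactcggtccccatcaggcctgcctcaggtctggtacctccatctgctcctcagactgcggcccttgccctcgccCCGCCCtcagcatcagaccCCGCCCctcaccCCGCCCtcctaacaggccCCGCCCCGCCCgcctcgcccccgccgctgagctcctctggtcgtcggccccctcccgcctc
St3gal5, chr6:72097358-72097551, plus strand: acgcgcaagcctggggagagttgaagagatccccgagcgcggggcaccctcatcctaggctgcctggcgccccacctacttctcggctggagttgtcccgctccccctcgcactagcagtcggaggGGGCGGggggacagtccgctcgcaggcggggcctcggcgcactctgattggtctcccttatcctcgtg
B3gnt5, chr16:19759984-19760191, plus strand: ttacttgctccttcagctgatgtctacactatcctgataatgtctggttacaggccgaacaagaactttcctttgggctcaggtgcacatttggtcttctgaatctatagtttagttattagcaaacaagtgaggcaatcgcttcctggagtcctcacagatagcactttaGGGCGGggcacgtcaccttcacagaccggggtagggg
A4galt, chr15:83251730-83251979, minus strand: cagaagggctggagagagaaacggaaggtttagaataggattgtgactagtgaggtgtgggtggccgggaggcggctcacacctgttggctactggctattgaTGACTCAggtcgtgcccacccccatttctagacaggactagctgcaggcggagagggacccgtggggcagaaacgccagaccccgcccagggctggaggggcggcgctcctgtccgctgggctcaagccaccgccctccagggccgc
Over windows of 300 bases that include the start, the phorbol ester response element was found in 5.2% of the 32851 RefSeq promoters and the GC box in 35.7%. A4galt had 1 match to the phorbol ester element, 147 bases before its start, and the windows of the other 4 genes had 0. The cyclic AMP response element (TGACGTCA), found in 1.79% of promoters, had 0 matches in all 5. The B4galt5 window held 7 GC boxes, that of A4galt 4, those of St3gal5 and B3gnt5 2 each, of which 1 each lies in the printed stretch, and that of St8sia1 1. The window of B4galt5 was 75% G and C, that of St3gal5 72.7% and that of B3gnt5 53.3%, against a median of 52.7% over all promoters. A match describes the letters and does not show that a factor binds there.

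Each level is an RMA value in log2 units, so 1 unit is a doubling of the measured signal, and they do not rank different probe sets. The medians of the arrays lay between 5.64 and 5.71 and their lower quartiles between 4.32 and 4.43. No background probe sets were in the table, and presence or absence was not called for any gene. In both groups the array numbered 1 stood apart from those numbered 2 and 3, and each result is therefore given with that array set aside or modelled. Among lung epithelial markers 2 of 15 were measured, the surfactant proteins Sftpa1 (3.29 to 3.89) and Sftpd (5.28 to 5.50), so the labelled cell type could hardly be checked. Sftpa1 lay below the lower quartile of every array.

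**Figure D1:**
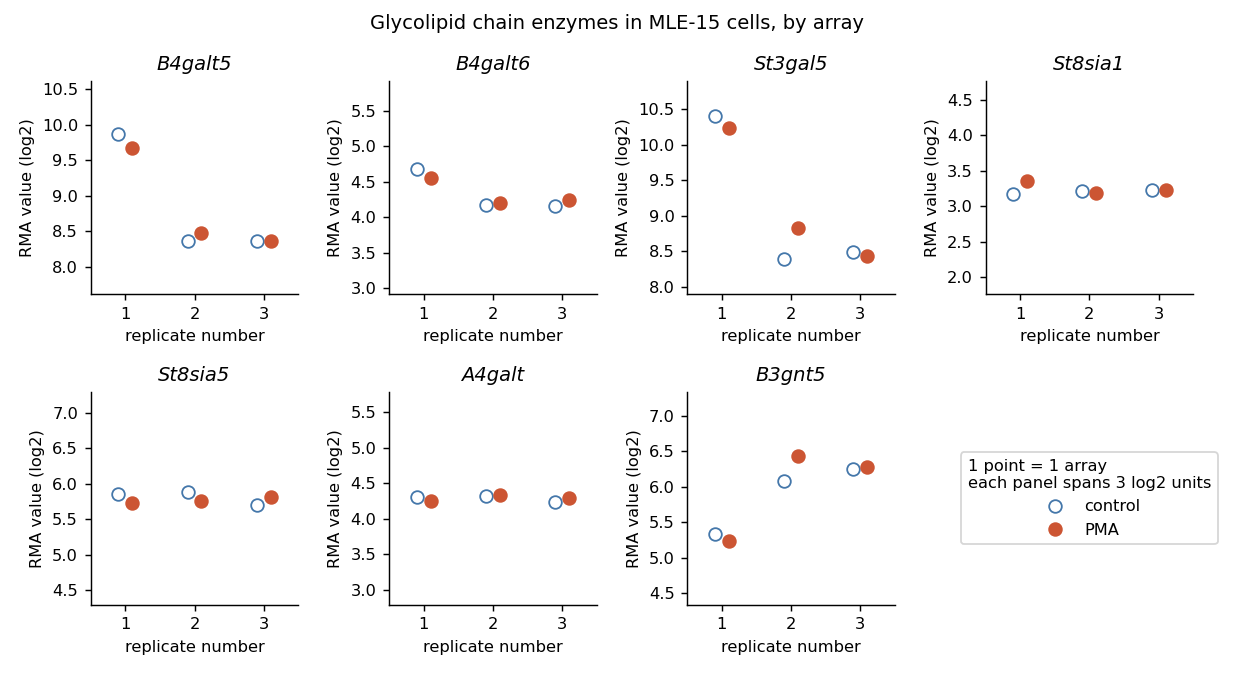
RMA values (log2) of the 7 glycolipid chain enzymes by replicate number, with 1 point per array, control open and PMA filled. In number 1, St3gal5, B4galt5 and B4galt6 lie above the other 4 arrays and B3gnt5 lies below them. Control and PMA points of the same number differ by up to 0.44 log2 units (St3gal5, number 2).

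Lactosylceramide synthases add galactose to glucosylceramide, and B4galt5 and B4galt6 encode them. B4galt5 stood at 9.87, 8.36 and 8.35 in control arrays 1, 2 and 3 and at 9.67, 8.47 and 8.37 in PMA arrays 1, 2 and 3. Only the 2 arrays of number 1 were high, and the control and PMA ranges overlapped. B4galt6, the paralogue known for its expression in brain, stood at 4.68, 4.18 and 4.16 in control and at 4.55, 4.20 and 4.24 in PMA arrays. Its number 1 arrays were again the highest, but the probe set was dim, above the lower quartile of its array in number 1 and below it in numbers 2 and 3.

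St3gal5, the GM3 synthase, transfers sialic acid to lactosylceramide and so opens the ganglioside route. It stood at 10.41, 8.39 and 8.49 in control and at 10.23, 8.83 and 8.44 in PMA arrays. The number 1 arrays were highest, and PMA 2 stood above the remaining 3. St8sia1, the GD3 synthase, adds a further sialic acid to GM3. Its values were 3.17, 3.22 and 3.23 in control and 3.36, 3.19 and 3.22 in PMA arrays, all below the lower quartile of every array. St8sia5, which adds sialic acid to more complex gangliosides, stood at 5.86, 5.88 and 5.70 in control and at 5.72, 5.76 and 5.81 in PMA arrays. Neither St8sia1 nor St8sia5 separated the treatments or the numbers.

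A4galt makes globotriaosylceramide (Gb3), the receptor for Shiga toxin. It stood at 4.30, 4.32 and 4.24 in control and at 4.25, 4.34 and 4.30 in PMA arrays, each below the lower quartile of its own array. The 6 values did not separate the treatments or the numbers. B3gnt5, the lactotriaosylceramide synthase that starts the lacto-series, stood at 5.33, 6.08 and 6.24 in control and at 5.24, 6.43 and 6.28 in PMA arrays. Its number 1 arrays were the 2 lowest, opposite to St3gal5 and B4galt5, and PMA 2 was the highest.

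PMA and control were compared to ask whether PMA changed these enzymes, and none of the 7 passed the test. With limma, adjusting by Benjamini-Hochberg over all 1246 probe sets, 0 of the 7 had an adjusted p under 0.05 and 0 an unadjusted p under 0.05. Over all probe sets 0 were called (0.00%), with 4 (0.321%) at an unadjusted p under 0.05. The largest difference among the 7 was that of B3gnt5, at 0.10 log2 units (SE 0.40), with means of 5.88 ± 0.49 in control and 5.98 ± 0.65 in PMA arrays (SD, n = 3 each). St3gal5 averaged 9.10 ± 1.14 and 9.17 ± 0.95 (SD, n = 3 each), a difference of 0.067 (SE 0.73). B4galt5 averaged 8.86 ± 0.87 and 8.84 ± 0.72 (SD, n = 3 each), a difference of -0.027 (SE 0.56). Of the 7 differences 4 were above 0 and 3 below, with a median of 0.0064 against 0.0033 over all probe sets. The control and PMA ranges overlapped for all 7 enzymes, and over the table they did not overlap in 3.37% of probe sets.

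The wide errors of St3gal5, B4galt5 and B3gnt5 came with the spread between number 1 and the rest, so the same comparison was made with the number as a block. The differences stayed as they were and the errors shrank, to an SE of 0.11 for St3gal5, 0.077 for B4galt5 and 0.089 for B3gnt5. Again 0 of the 7 passed (0.00% of all probe sets), with 0 at an unadjusted p under 0.05 against 42 (3.37%) over the table. The 95% interval of the PMA difference then ran from -0.18 to 0.32 for St3gal5, from -0.20 to 0.15 for B4galt5 and from -0.10 to 0.30 for B3gnt5. For B4galt6 it ran from -0.17 to 0.15, for St8sia1 from -0.11 to 0.21, for St8sia5 from -0.22 to 0.12 and for A4galt from -0.14 to 0.16. All 7 intervals of the blocked fit lay within 0.32 log2 units of 0, on probe sets whose signal over background is unknown. Without the block the interval of St3gal5 was -1.76 to 1.90, which includes a doubling and a halving. When the number 1 arrays were dropped, the differences were 0.19 for St3gal5, 0.061 for B4galt5 and 0.19 for B3gnt5, and 0 of the 7 passed.

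**Figure D2:**
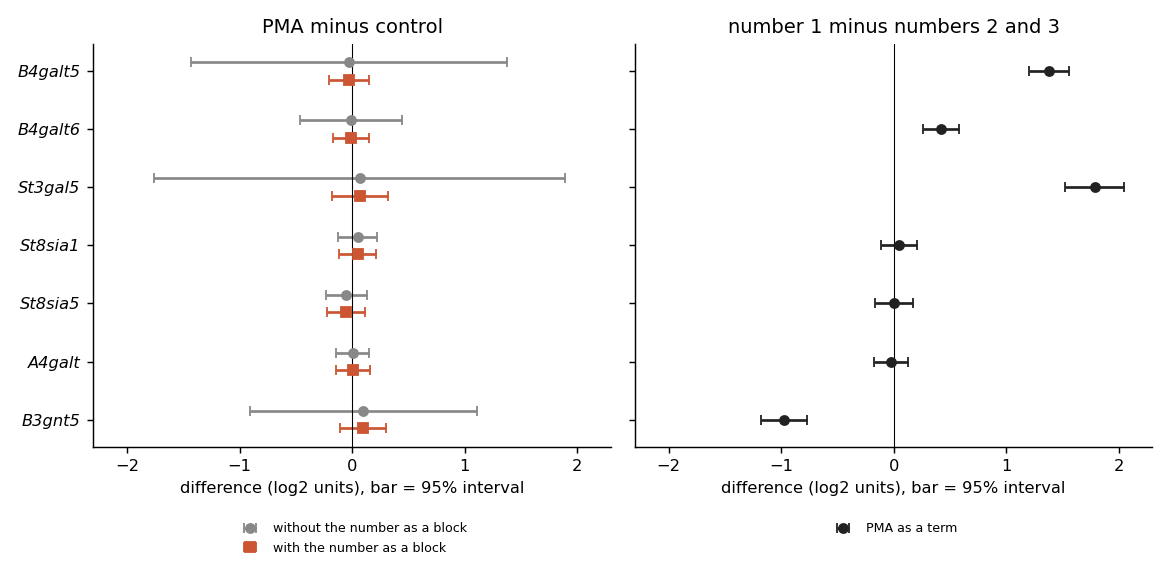
Differences in log2 units for the 7 enzymes, with bars for limma's 95% intervals: PMA minus control without and with the number as a block, and number 1 minus numbers 2 and 3. The blocked PMA intervals all include 0, while St3gal5, B4galt5 and B4galt6 lie above 0 and B3gnt5 below 0 for number 1.

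Within single numbers, the St3gal5 difference between PMA and control was -0.18 in number 1, 0.44 in number 2 and -0.056 in number 3. Those of B4galt5 were -0.20, 0.11 and 0.012 and those of B3gnt5 -0.089, 0.35 and 0.035. So the sign was not shared by the 3 numbers for any of these, and the largest in size came from number 2 for St3gal5 and B3gnt5 and from number 1 for B4galt5. Of the other members, B4galt6 gave -0.13, 0.021 and 0.088, St8sia1 0.19, -0.031 and -0.0093, St8sia5 -0.14, -0.12 and 0.11, and A4galt -0.055, 0.019 and 0.055. Whether the PMA difference depended on the number was tested with a product term, number 1 against numbers 2 and 3. No member passed it by limma after Benjamini-Hochberg adjustment, 0 of the 7 against 0.0803% of all probe sets. At an unadjusted p under 0.05 it was 0 of the 7 against 5.62%, and the smallest adjusted p was 0.743, for B4galt5 at -0.26 (SE 0.13, unadjusted p = 0.0850). Number 1 has 1 array per treatment, which that test takes to vary like the others.

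Between number 1 and the other arrays, 4 of the 7 enzymes differed: the GM3 synthase and both lactosylceramide synthases were higher in number 1, and the lacto-series enzyme was lower. St3gal5 had a mean of 10.32 over both number 1 arrays and of 8.54 ± 0.20 over the 4 others (SD, n = 4), 1.79 log2 units (SE 0.12) or 3.45-fold higher. B4galt5 averaged 9.77 against 8.39 ± 0.056 (SD, n = 4), 1.38 units (SE 0.080) or 2.61-fold higher. B4galt6 averaged 4.62 against 4.20 ± 0.037 (SD, n = 4), 0.42 units (SE 0.072) or 1.34-fold higher. B3gnt5 averaged 5.28 against 6.26 ± 0.15 (SD, n = 4), a difference of -0.97 units (SE 0.090), or 1.96-fold lower.

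By limma with PMA as a term and Benjamini-Hochberg adjustment, the adjusted p was 5.49e-07 for St3gal5, 2.11e-07 for B4galt5, 0.000673 for B4galt6 and 8.32e-06 for B3gnt5. The share called was 57.1% of the 7, against 41.7% of all probe sets (27.5% higher, 14.1% lower), so many transcripts besides these separated the numbers. With the values quantile-normalized again, 278 probe sets were higher and 232 lower, against 343 and 176 as deposited, and the 4 enzymes kept their directions and their calls. In both number 1 arrays St3gal5, B4galt5 and B4galt6 lay above the highest of the 4 other arrays and B3gnt5 below the lowest. Such separation was seen in 37.8% of probe sets upward and 18.1% downward. Number 1 is 1 pair of arrays and was known to stand apart, so the p-values hold for these arrays alone. The spelling of the titles follows the same split, and no source used here says what it or the number stands for.

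The other 3 enzymes gave small differences with narrow intervals. St8sia1 differed by 0.048 log2 units (95% interval -0.11 to 0.21), St8sia5 by 0.0015 (-0.17 to 0.17) and A4galt by -0.023 (-0.17 to 0.13). St8sia1 and A4galt had dim probe sets, on which a difference in transcript may not show. Between numbers 2 and 3, limma with Benjamini-Hochberg adjustment called 0 of the 7 (0.00% of all probe sets), with 0 at an unadjusted p under 0.05 against 61 (4.90%) over the table. The largest of these differences was that of St3gal5, at 0.14 (SE 0.13, adjusted p = 0.956).

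The distance of number 1 was present within each treatment. In control arrays it was 1.97 log2 units for St3gal5, 1.51 for B4galt5, 0.52 for B4galt6 and -0.83 for B3gnt5. In PMA arrays it was 1.60, 1.25, 0.33 and -1.12 in the same order. Both treatments gave the same sign for each of these 4, and opposite signs for St8sia1 (-0.057 and 0.15), St8sia5 (0.066 and -0.063) and A4galt (0.023 and -0.069).

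**Figure D3:**
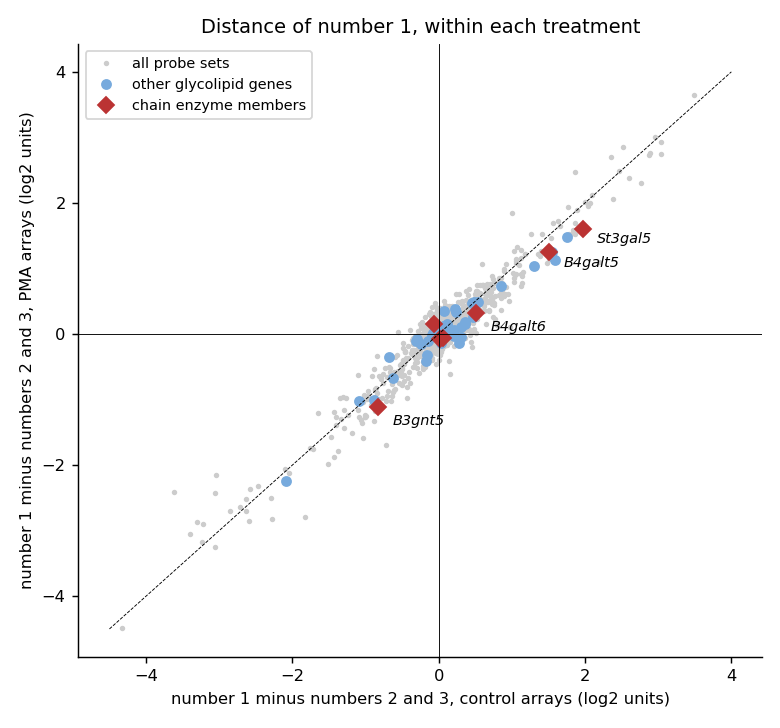
Number 1 minus numbers 2 and 3 in control arrays (x axis) against the same in PMA arrays (y axis), both in log2 units, for all 1246 probe sets, with the 7 members and 43 other glycolipid genes marked and a dashed line of equality. St3gal5 (1.97 and 1.60) and B4galt5 (1.51 and 1.25) lie at the upper right and B3gnt5 (-0.83 and -1.12) at the lower left, among many other probe sets.

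Of 23 measured cell type markers, 10 (43.5%) differed between number 1 and the other arrays, a share near the 41.7% of all probe sets. In number 1, 2 of the 8 measured leukocyte markers of 18 listed were lower, the mannose receptor Mrc1 at -2.74 and the chemokine receptor Ccr7 at -3.22, and 0 were higher. The summed linear signal of the 8 was 266 to 305 in number 1 and 737 to 766 in the 4 other arrays, a gap that lay in Mrc1 and Ccr7, since the other 6 differed by 0.16 log2 units (Adgre1) or less. Of 3 measured endothelial markers of 7, 1 was higher and 2 were lower, and the sums were 121 to 129 and 186 to 193. Of 6 measured fibroblast and mesenchymal markers of 11, 2 were higher and 2 lower, with sums of 1331 to 1595 and 1756 to 2961. Cspg4 (2.90) and Pdgfrb (0.78) were higher, and Dcn (-2.31) and Vcam1 (-1.31) lower. Such sums follow their brightest probe sets and hide these opposite directions. Of 4 measured neural markers of 6, 0 were called, and of the 2 epithelial ones 1, Sftpa1, was higher at 0.52. The lowest marker value was 2.92 log2 units for Lum, near the array minima of 2.58 to 2.67. Presence was not called for any marker. The part of these differences in the result was not tested. In bulk RNA a different share of cells of a type and a different amount of a transcript per cell cannot be told apart. All arrays are of 1 established line.

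Of 48 other genes listed for glycolipid synthesis, breakdown and sugar donors, 43 were measured, and the rest were not analysed here. With PMA, limma after Benjamini-Hochberg adjustment passed 0 of the 43, with 0 at an unadjusted p under 0.05, and with the number as a block 0 passed with 1, Gcnt2, at an unadjusted p of 0.0385. The largest PMA differences were those of St3gal1 (0.21), which sialylates galactose on mucin-type O-glycans and gangliosides, the branching enzyme Gcnt2 (0.17) and the GM1 synthase B3galt4 (-0.15).

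Between number 1 and the other arrays, 19 of the 43 differed, 13 higher and 6 lower, or 30.2% and 14.0%, shares near the 27.5% and 14.1% of all probe sets. With the values quantile-normalized again the split was 11 higher and 10 lower. The median difference of the 43 was 0.088 against 0.079 over all probe sets. Ugcg, which makes the glucosylceramide that B4galt5 and B4galt6 use, was lower, at 8.42 and 8.42 in number 1 and 9.29 to 9.48 in the others, a difference of -0.95 (SE 0.071). Of the 3 genes of glucosylceramide, galactosylceramide and sulfatide it alone was called. So the signal for the step before lactosylceramide differed in the opposite direction to those of the lactosylceramide synthases. The Ugcg probe set carries the suffix s, as those of St8sia1 and St8sia5 do, and may bind other transcripts.

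Among 9 other ganglio-series genes, 4 were higher (44.4%) and 0 lower, against 27.5% and 14.1% of all probe sets. St3gal1 stood at 9.75 and 9.79 in number 1 and at 8.43 to 9.04 in the others, a difference of 1.17 (SE 0.14). The rest of those called differed less, St6galnac6 by 0.51, St6galnac5 by 0.28 and St3gal2 by 0.27. They were named after their values were seen, and St6galnac5 was dim, below the lower quartile of every array. The GM2 and GD2 synthase B4galnt1, which extends what St3gal5 makes, differed by -0.030 (SE 0.071), and B3galt4 by 0.13 (SE 0.086). These last 2, named as the next steps after their values were seen, were not called. Of 3 globo-series genes 1 (33.3%) was lower, B3galt5, a β1,3-galactosyltransferase that also builds type 1 lacto chains. It stood at 5.11 and 4.94 in number 1 and at 7.12 to 7.28 in the others, a difference of -2.17 (SE 0.077), in the same direction as B3gnt5.

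Of 11 other lacto-series genes, 2 were higher and 2 lower (18.2% each), against 27.5% and 14.1% of all probe sets. B4galt1, a galactosyltransferase that builds N-acetyllactosamine, was 1.36 units higher (SE 0.12), and Gcnt2, which branches such chains into I antigen, differed by -0.64 (SE 0.080). Of 12 breakdown genes 4 were higher (33.3%) and 1 lower (8.33%). They included Gm2a, the activator protein that presents GM2 for cleavage, at 1.61 (SE 0.099), and Arsa, the sulfatidase of lysosomes, at 1.40 (SE 0.10). Of 5 genes of sialic acid donors and transport 3 (60%) were higher and 1 (20%), Cmas, was lower. Cmas makes the CMP-sialic acid that St3gal5 uses, and it differed by -1.06 (SE 0.077).

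**Figure D4:**
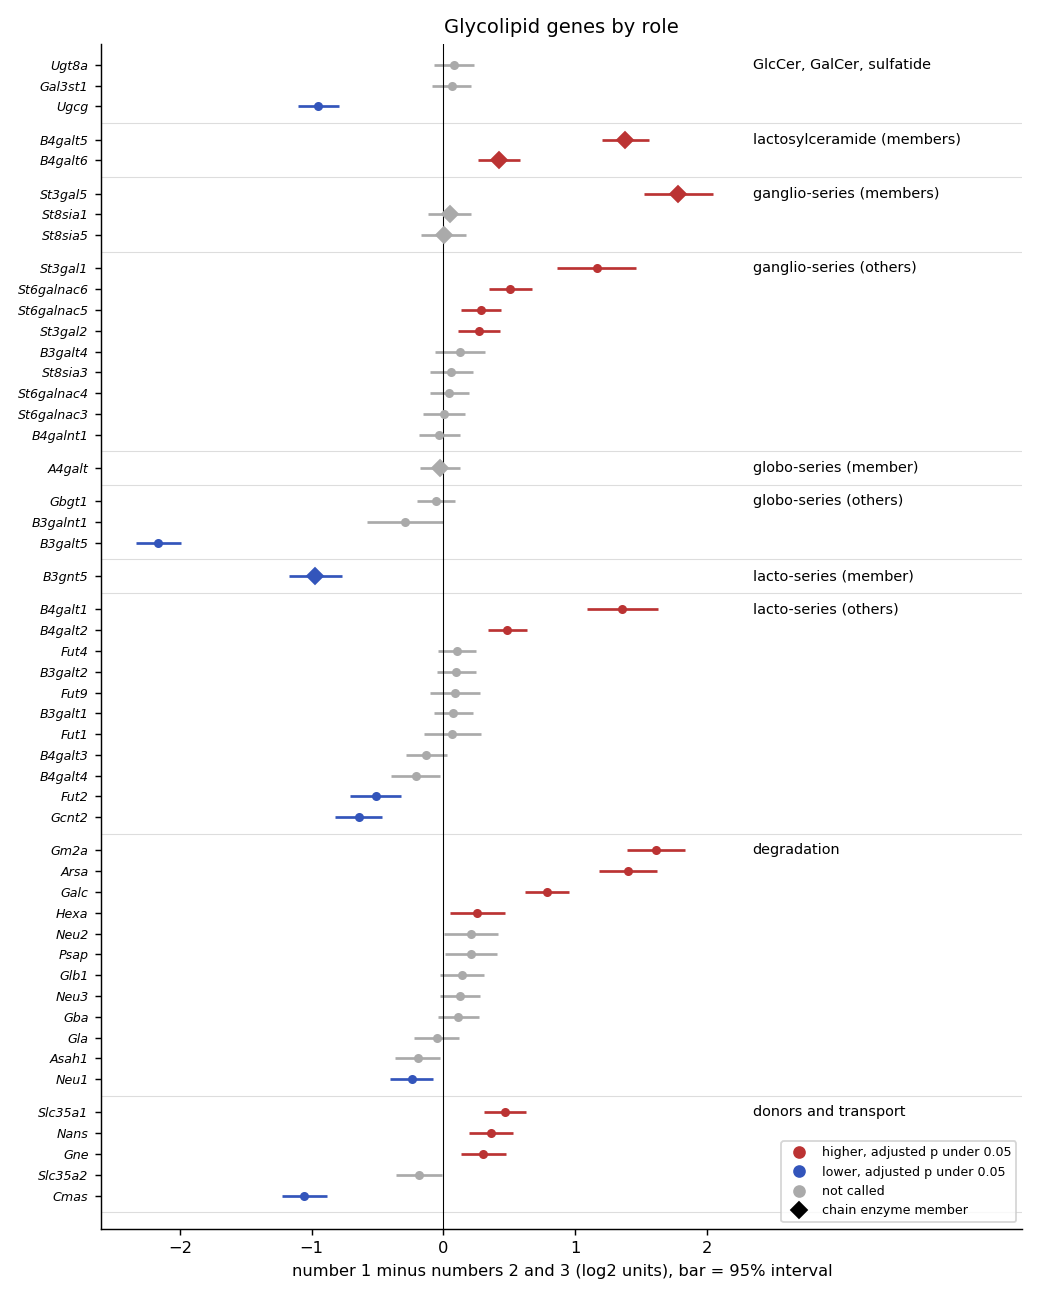
Number 1 minus numbers 2 and 3 (log2 units, x axis) for the 7 members (diamonds) and 43 other glycolipid genes (circles), grouped by role, with bars for limma's 95% intervals and colour for calls at an adjusted p under 0.05. St3gal5, B4galt5, Gm2a, Arsa and B4galt1 lie furthest right, and B3galt5, Cmas, B3gnt5 and Ugcg furthest left.

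The genes whose pattern over the 6 arrays was most like that of each enzyme were found among the 909 named genes by Pearson correlation of the log2 values. For St3gal5 they were Gm2a (0.9996) and Arsa (0.9992), for B4galt5 Uap1l1 (0.9994) and Cspg4 (0.998), and for B4galt6 Galnt15 (0.998) and Ovgp1 (0.996). For B3gnt5 they were Vcam1 (0.995) and Chsy3 (0.991). These values rest on the distance between number 1 and the rest, which all these genes share, and 44 genes exceeded 0.99 with St3gal5 and 51 with B4galt5. For St8sia1, St8sia5 and A4galt no gene reached 0.99, and the closest were Rpl39l and Emcn (both 0.955), Hyal2 (0.952) and Chst10 (0.928), and Cxcl10 (0.957) and Il3 (0.849). After the means of number 1 and of the other arrays were removed, Gm2a was still the closest to St3gal5 (0.995). For the other members the closest were then Wnt1 and Klra4 for B4galt5, Papss2 and Clec2h for B4galt6, Slc35d2 and Thbd for St8sia1, Hyal2 and Sftpa1 for St8sia5, Il27ra and Fut9 for A4galt, and Fzd1 and Mcam for B3gnt5. The highest of these values was 0.999 for St8sia1, 0.991 for B4galt5, A4galt and B3gnt5, 0.988 for B4galt6 and 0.976 for St8sia5. With 6 arrays and 909 genes such values are a description only.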

How the data were processed

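The deposited table holds RMA values on the log2 scale, made by the authors from Affymetrix arrays, per the submitters' processing notes. RMA usually includes quantile normalization, which hides a shift of all transcripts one way. The deposited columns did not share exact quantiles (upper quartiles 7.86 to 8.05), so a shift over this table can remain, and the median difference of number 1 over all probe sets was 0.079. The sources used here do not name its version, the array or any filter. Biotinylated cRNA was made from 0.5 µg of Trizol-extracted total RNA, per the labels' protocols. Of 1246 probe sets, 963 were named by RefSeq accession, without versions, through the gene table of GRCm38.p6 (909 genes).

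Values were used as deposited and fitted over the whole table with limma 3.58.1 in R 4.3.3 (lmFit, eBayes, Benjamini-Hochberg adjustment over all probe sets, threshold 0.05). SE and 95% intervals are limma's moderated ones. The procedure was tested on simulated data. For the PMA comparison these held no difference between the numbers, unlike the real arrays, and the blocked fit was not simulated. For the comparisons of numbers they held a difference only in the probe sets given a known change. The simulated noise was independent between arrays, without a part shared by arrays of the same number. The number of arrays limits the precision.

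Members and lists were chosen with earlier results of these data known. All members are named. Of the other glycolipid genes, up to 4 called genes of largest difference in each direction are named, or 3 where none was called, and for each member the 2 most correlated genes. The others are said to be chosen later.

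Control and PMA arrays share the numbers 1 to 3. Deviations from the group means of same-numbered arrays correlated at 0.956, 0.815 and 0.912 across probe sets, all over 0.1. The numbers were therefore also treated as pairs, in the fit with the number as a block. The main PMA fit had no block. That pairing comes from the data and rests largely on number 1. Alternatives were other scalings, filters, variance models and left-out arrays.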

Additional observations from a re-analysis of the deposited data

How the results depend on the processing

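The 4 enzymes that differed between number 1 and the other arrays kept direction and call in every alternative that could be run on them, 16 distinct fits each for St3gal5, B4galt5 and B3gnt5 and 15 for B4galt6, which the filter on dim probe sets removed. The comparison within control arrays is the same fit as that without PMA 1, and the one within PMA arrays the same as that without control 1. Averaging probe sets cannot move the differences of members with 1 probe set, only their p-values. The same holds for the filters on dim probe sets and on suffixes and for the other variance model. It also holds for the fits without PMA as a term and with the number as a block. In all of these the direction was fixed in advance, and only the call could change. Over these alternatives the difference ran from 1.60 to 1.97 for St3gal5, 1.20 to 1.51 for B4galt5, 0.33 to 0.52 for B4galt6 and -1.12 to -0.83 for B3gnt5. The filter also removed St8sia1 and A4galt, and leaving out probe sets with suffix s or x removed St8sia1 and St8sia5. Calls for PMA were 0 in all alternatives, for the 7 and for the 43 other genes, including the replicate block, which changed no call. With 1 array left out the numbers are unbalanced, and the PMA difference ran from -0.47 to 0.72 for St3gal5, -0.44 to 0.48 for B4galt5, -0.12 to 0.16 for B4galt6, -0.18 to 0.47 for B3gnt5, -0.00091 to 0.084 for St8sia1 and -0.016 to 0.029 for A4galt, so its sign depends on single arrays. The other PMA reversals were all of values not called: A4galt at -0.0059 with median centring and -0.0077 with quantile normalization again, and, with number 1 left out of both groups, B4galt5 at 0.061, B4galt6 at 0.055 and St8sia1 at -0.020.

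For number 1 the reversed values were again of enzymes that were not called. With 1 array left out the difference ran from -0.063 to 0.066 for St8sia5, -0.057 to 0.15 for St8sia1 and -0.069 to 0.023 for A4galt. St8sia5 was at -0.038 with median centring, -0.052 with quantile normalization again, -0.030 against number 2 only and -0.063 within PMA arrays. St8sia1 was at -0.033 with quantile normalization again and -0.057 within control arrays, and A4galt at 0.0048 against number 3 only and 0.023 within control arrays. The cause was not tested. Signal over background is unknown, which limits what dim probe sets can show.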

Other observations

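Among the 4 arrays of numbers 2 and 3, PMA 2 stood nearest to number 1 for St3gal5. Its value was 0.39 log2 units above the mean of control 2, control 3 and PMA 3 (8.44), which is 20.5% of the distance of number 1 from those 3 arrays, and for B4galt5 it was 7.97%. For B3gnt5, which was lower in number 1, PMA 2 lay on the other side, 0.23 units above the 3 arrays (6.20). Genes that were higher in number 1 showed the same position of PMA 2 in several cases, such as St3gal1 (44.4%), B4galt1 (25.7%), Arsa (22.7%) and Gm2a (17.9%), while B4galt6 (1.89%) and B4galt2 (-9.61%) did not. These genes were picked after their values were seen. Over the 519 probe sets called for number 1, the position of each array along that distance, as the slope through 0 of its offset from the 3 other arrays, was 4.77% for PMA 2, 1.32% for control 2, -1.97% for control 3 and -2.54% for PMA 3. PMA 2 was the highest of the 4 arrays in 43.1% of the 343 probe sets higher in number 1, and in 33.2% of all probe sets. In the other direction, it was the lowest of the 4 in 33.5% of the 176 probe sets lower in number 1. The share of all probe sets in which it was the lowest was not computed, so this value stands without a comparison. No test was made of these values.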
